A study of Sus scrofa with 12 samples.

Results

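The genes of antigen processing and presentation were followed in the endometrium of sows at the end of gestation. They are the genes that the deposited annotation assigns to the KEGG pathway of antigen processing and presentation and to neither the lysosome pathway nor the pathway of protein processing in the endoplasmic reticulum. The rule gave 43 of the 20674 genes in the table, and 15 further pathway genes, mostly cathepsins and chaperones, were left out by it. Of the 43 genes, 40 had enough counts to be tested among 15351 genes. The other 3, the killer cell receptor gene KIR2DL1 and the T cell receptor alpha loci LOC100626606 and LOC100620407, had at most 26 counts in any library.

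The sows were multiparous Landrace × Yorkshire crosses and were fed over 114 days of gestation. The diets of L − N and L + N held 3.73% crude fiber and those of H − N and H + N held 7.46%. The diets of L + N and H + N also held 0.05% N-carbamylglutamate (NCG), an analog of N-acetylglutamate that activates the synthesis of arginine, while L − N and H − N received none. Each group had 3 libraries of poly(A) RNA, 12 in all. The labels number them and do not say that each came from a separate animal, so p-values measure only the spread between these libraries. Levels are given as CPM, counts brought to a common library size with factors from the trimmed mean of M values (TMM), and levels of different genes are compared only as FPKM, which divides by gene length.

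Every nucleated cell can show fragments of its own proteins on MHC class I, a heavy chain paired with β2-microglobulin. The immunoproteasome cuts these peptides, the TAP transporter carries them into the endoplasmic reticulum, and CD8 T cells and natural killer (NK) cells read the complex. MHC class II is carried mainly by macrophages, dendritic cells and B cells, takes peptides from endocytosed proteins, and is read by CD4 T cells. In the pig, the MHC is called the swine leukocyte antigen (SLA) complex. During pregnancy the endometrium faces fetal membranes that carry paternal antigens, and its leukocytes and their MHC genes are studied for that reason.

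The 12 libraries held 14369781 to 19309724 counts, of which the 43 genes took 0.341% to 0.547%. Among the marker lists, stromal genes summed to 22274 to 50566 CPM and epithelial genes to 979 to 2230.1 CPM in every library. CYP19A1, listed among the 5 trophoblast markers, was at 0 in all 12 libraries, and the genes of that list together held 94.6 to 218 CPM. Over all genes, H − N replicate 3 stood apart from the other H − N libraries. So did replicate 1 of L − N from the other L − N libraries. Its 10 macrophage and monocyte markers summed to 1429 CPM, against 3560.0 CPM in replicate 2 and 3746 CPM in replicate 3, and its 5 smooth muscle markers to 5052 CPM, against 1594 and 1975 CPM. L − N is the reference of 3 comparisons, and values without it are given beside the results that it moved most. In such bulk tissue, fewer cells of a type and less RNA per cell cannot be told apart.

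Per gene length, the class I and class II systems were both strongly represented. B2M, the gene of β2-microglobulin, had the highest mean, with 669 FPKM over the 12 libraries. It was followed by the class II chain SLA-DRA with 446 FPKM and the invariant chain CD74 with 378 FPKM. The proteasome activator PSME1 had 173 FPKM and the class II chain SLA-DQB1 had 163 FPKM. The heavy chains SLA-2, SLA-1 and SLA-3 followed with 137, 118 and 96.0 FPKM. The transporter genes TAP1 and TAP2 had 28.7 and 20.2 FPKM. The genes of lymphocytes lay far lower, with 6.53 FPKM for CD4, 2.07 FPKM for CD8A and 0.849 FPKM for IFNG. On the genome, 23 of the 43 genes were on chromosome 7, which holds the SLA complex.

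No gene of the 43 was differentially expressed in any of 8 comparisons with edgeR's quasi-likelihood test, at an adjusted p under 0.05 over all genes tested and an absolute log2 fold change above 1. For H − N against L − N this compares with 2.91% of all genes, and an unadjusted p under 0.05 was found for 13 of the 40 where 24.4% of all genes had one. For L + N against L − N the counts were 0 where 3.99% of all genes were called, and 8 at the unadjusted threshold where 27.8% were. Those for H + N against L − N were 0 where 3.58% were called, and 12 where 27.5% were. These 3 comparisons share the L − N libraries. For high against low fiber over both NCG levels, 0.0261% of all genes were called, and 9 of the 40 passed unadjusted, against 19.5%. For NCG over both fiber levels, 1.8% of all genes were called and 7 of the 40 passed unadjusted, against 23.6%. For the interaction of the factors, 0 of all genes were called (0%) and 6 of the 40 passed unadjusted, against 12.8%. H + N against H − N and H + N against L + N called 0% of all genes each, and 2 and 1 of the 40 genes passed unadjusted, against 8.67% and 4.68%. The other tool, DESeq2, called 2 of the 40 genes for fiber, 3 in H − N, 3 in H + N and 0 in the other 5 comparisons, where it called 1.89%, 5.95% and 6.44% of all genes in the first 3.

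Without the fold threshold, an adjusted p under 0.05 in edgeR was reached by 1 gene for NCG, where 7.27% of all genes reached it, by 2 genes in L + N against L − N, where 9.6% did, and by 2 genes in H + N against L − N, where 7.97% did. They were the transcription factor gene CREB1, which was higher with NCG, and TRIM52, which was lower. No gene of the 43 reached it for fiber or in H − N against L − N, where 0.0521% and 5.27% of all genes did, nor in the other 3 comparisons. The median log2 fold change of the 40 genes was −0.00 in H − N, −0.08 in L + N and −0.09 in H + N against L − N, beside 0.03, −0.02 and 0.02 over all genes. By role, the 7 class II genes were negative in all 3 of these comparisons, while the 8 class I genes were divided, with 4, 3 and 3 of them positive.

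**Figure D1:**
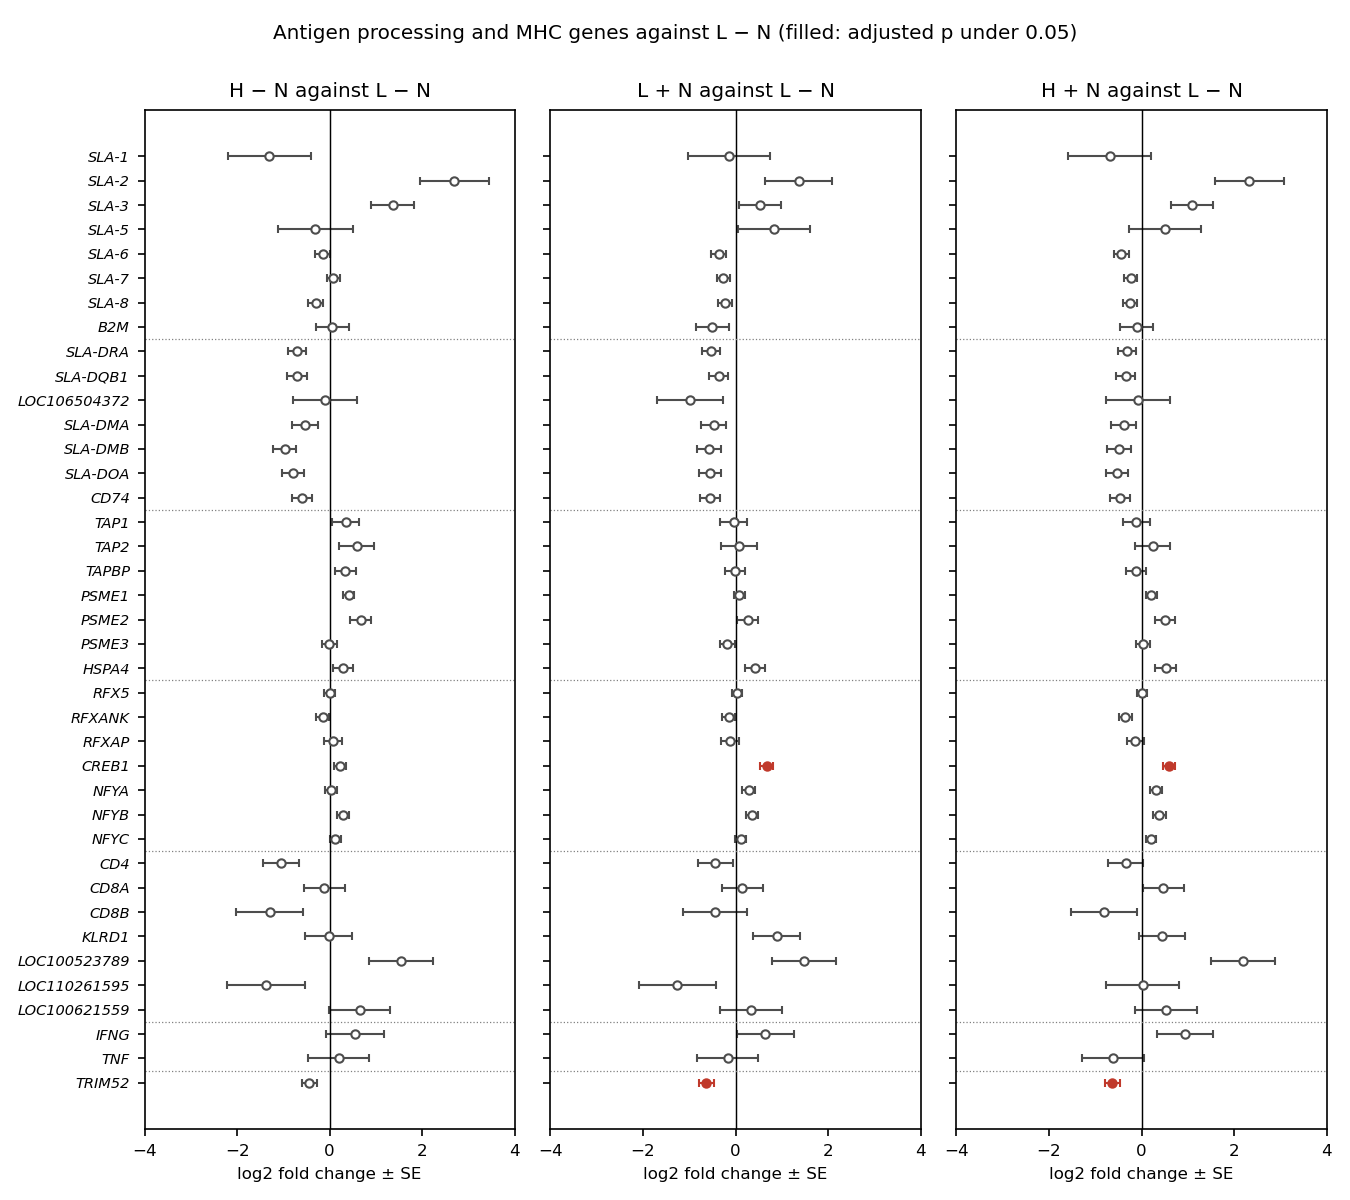
Log2 fold change ± SE (horizontal axis) of 39 genes of antigen processing and presentation for 3 groups (H − N, L + N, H + N), each against L − N, from edgeR on all 12 libraries, with the genes in order of role and the roles separated by dotted lines. The 7 class II genes lie left of 0 in the 3 panels, SLA-2 and SLA-3 lie right of it, and CREB1 and TRIM52 (filled) are the genes with an adjusted p under 0.05. LOC110257615, with 1 count in total in H + N, is left out.

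The class II genes had lower mean levels in each of the other 3 groups than in L − N, and none of these differences passed the test in edgeR. The 7 genes are SLA-DRA and SLA-DQB1, which form antigen-binding chains, SLA-DMA and SLA-DMB, whose product loads the peptide, SLA-DOA, which belongs to a dimer that restrains the loading, the invariant chain CD74, which guides class II through the cell, and LOC106504372, a locus of 283 bases annotated as class II with 2 to 22 counts per library. Against L − N, all 7 had a negative log2 fold change in each group, with medians of −0.70 in H − N, −0.56 in L + N and −0.39 in H + N. Of all genes, 53.5%, 47.7% and 51.7% had a positive one in the same comparisons. The interaction was positive for all 7, with a median of 0.82, where 49.4% of all genes were positive. All 7 also had a positive value for H + N against H − N (median 0.26) and against L + N (median 0.09), where 51% and 50.9% of all genes were positive. The sign of LOC106504372 turned in H − N and H + N without L − N replicate 3 (0.86 and 0.88), and 4 of the 7 turned sign for H + N against L + N when single libraries were left out (SLA-DQB1, SLA-DMA, SLA-DOA and CD74). With DESeq2, 5 of the 7 had an adjusted p under 0.05 in H − N without reaching the fold threshold, namely SLA-DMB (0.00474), SLA-DRA (0.00683), SLA-DQB1 (0.0163), SLA-DOA (0.0229) and CD74 (0.0428), where 13.6% of all genes did, and SLA-DRA did in L + N (0.0482). With RLE scaling in edgeR, SLA-DMB did in H − N (adjusted p = 0.0466). For NCG over both diets 1 of the 7 was positive, where 46.9% of all genes were.

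SLA-DRA, the alpha chain of SLA-DR, had 602, 1082 and 1026 CPM in L − N replicates 1 to 3. It had 698, 616 and 569 CPM in L + N, 523, 540.4 and 603 CPM in H − N, and 770.0, 744 and 668 CPM in H + N. The high values were those of L − N replicates 2 and 3, while replicate 1 lay among the libraries of the other groups. Between H − N and L − N its log2 fold change was −0.70 ± 0.20 (SE, adjusted p = 0.0615 in edgeR). The interaction was 0.91 ± 0.28, with an unadjusted p of 0.0067 and an adjusted p of 0.275 in edgeR.

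CD74 showed the same layout. It had 633, 1133 and 988 CPM in L − N, 755, 545 and 571 CPM in L + N, 693, 603 and 513 CPM in H − N, and 625, 753 and 631 CPM in H + N. The L − N replicates 2 and 3 were above every other library, and the groups overlapped through L − N replicate 1. Its log2 fold changes were −0.61 ± 0.22 in H − N (adjusted p = 0.118, edgeR), −0.56 ± 0.22 in L + N and −0.45 ± 0.22 in H + N.

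SLA-DMB had the lowest adjusted p of the class II genes. It had 68.5, 168 and 143 CPM in L − N and 68.7, 71.4 and 52.9 CPM in H − N, a log2 fold change of −0.97 ± 0.25 (adjusted p = 0.0504, edgeR). In L + N it had 88.1, 82.3 and 83.3 CPM and in H + N 92.1, 90.3 and 88.0 CPM. All H + N libraries were above all H − N libraries, and the log2 fold change between them was 0.49 ± 0.25 (adjusted p = 0.609, edgeR). Its partner SLA-DMA had 47.3, 109.6 and 89.9 CPM in L − N and 49.3 to 76.4 CPM in the other 9 libraries, so L − N held both its lowest and its highest library. The span of both genes on Sscrofa11.1 is overlapped by BRD2 on the opposite strand, and the counting strand is not known.

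In SLA-DQB1 and SLA-DOA the H − N libraries did not overlap those of L − N. SLA-DQB1 had 200.5, 274 and 262 CPM in L − N against 146, 146 and 159 CPM in H − N (log2 fold change −0.71 ± 0.21, adjusted p = 0.0741, edgeR). SLA-DOA had 18.5, 28.0 and 28.9 CPM against 16.0, 13.5 and 14.2 CPM (−0.79 ± 0.25, adjusted p = 0.0834, edgeR). These were the 2 genes of the 40 that lay lower without overlap in that comparison, where 12.7% of all genes did. In L + N and H + N both genes spanned a wider range and overlapped L − N, with 149 to 238 CPM and 139.7 to 229 CPM for SLA-DQB1, and 14.5 to 20.7 CPM and 12.2 to 22.4 CPM for SLA-DOA.

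**Figure D2:**
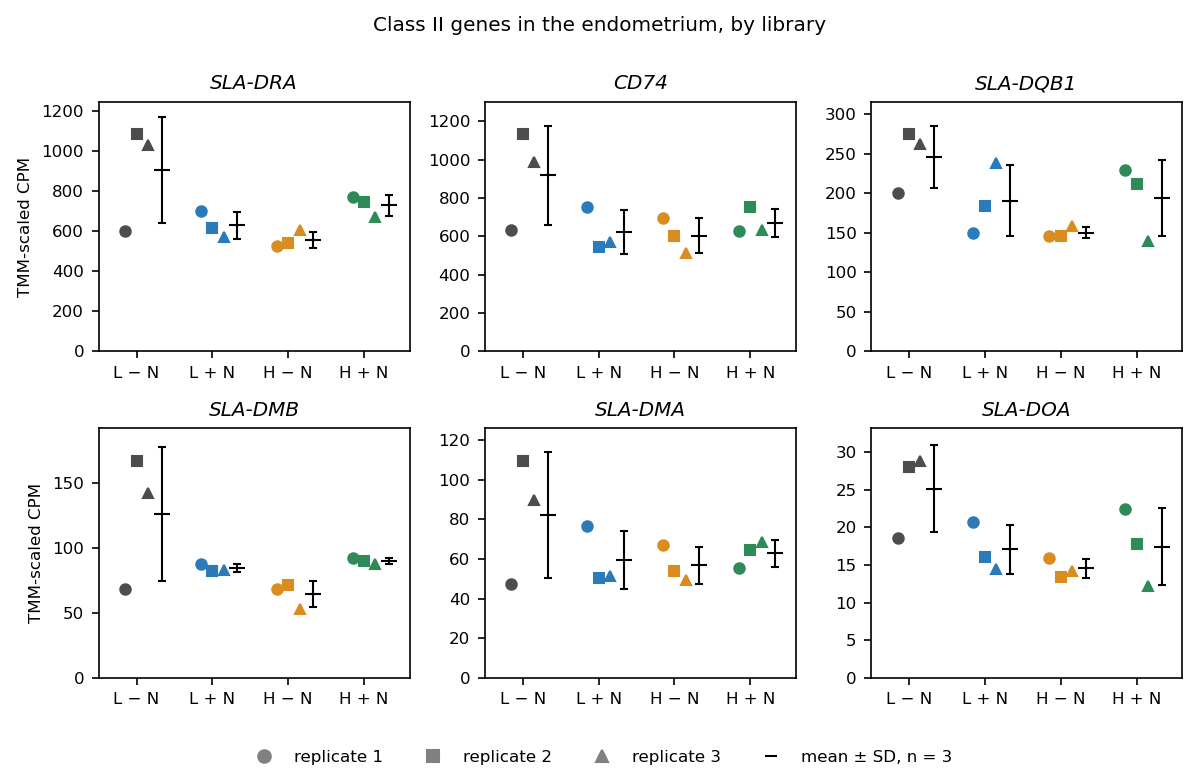
TMM-scaled CPM of 6 class II genes in each library (vertical axes, from 0) by group (horizontal axes), with symbols for the replicate numbers and bars for the mean ± SD of 3 libraries. In each panel L − N replicates 2 and 3 (square and triangle) lie above L − N replicate 1 (circle), which sits within or below the range of the libraries of the other groups, and for SLA-DMB the H + N libraries lie above the H − N libraries.

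Markers of macrophages moved with the class II genes. The 10 markers summed to 1429, 3560.0 and 3746 CPM in L − N, 1710.1, 1624 and 1183 CPM in L + N, 977, 1053 and 730.5 CPM in H − N, and 1425, 1454 and 1135 CPM in H + N. All 10 were detected, and 8 of them were differentially expressed and lower in H − N than in L − N, 2 in L + N and 4 in H + N. Among all genes, 2.91%, 3.99% and 3.58% were called in these comparisons. The 4 general leukocyte markers had a like layout, with 438, 959 and 910 CPM in L − N. They summed to 439 to 652 CPM in L + N, 369 to 400 CPM in H − N and 462 to 495 CPM in H + N. Over the 5 SLA class II loci, the summed level was 937 CPM in L − N replicate 1, 1662 and 1550 CPM in replicates 2 and 3, 949 to 1033 CPM in L + N, 821 to 878 CPM in H − N and 977 to 1169.5 CPM in H + N. The 8 dendritic cell markers in the table summed to 26.6 to 59.8 CPM and the 5 B cell markers to 3.43 to 11.9 CPM over all libraries. CPM sums of different lists hold genes of different lengths and are not compared with each other. The part of these cell types in the class II values was not tested.

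**Figure D3:**
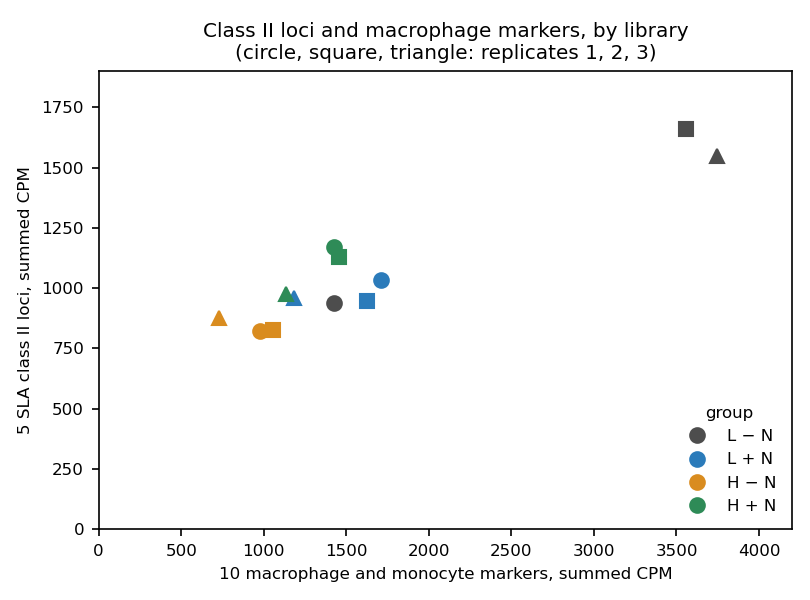
Summed CPM of the 5 SLA class II loci (vertical axis) against the summed CPM of 10 macrophage and monocyte markers (horizontal axis), with 1 point per library, colored by group. L − N replicates 2 and 3 lie alone at the upper right (1662 and 1550 CPM of class II), and the H − N libraries lie at the lower left (821 to 878 CPM).

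Without L − N replicate 1 the class II differences were larger and several passed the adjusted threshold in edgeR. That fit keeps L − N replicates 2 and 3, which held the higher class II sums of the group. SLA-DMB was then differentially expressed in H − N (log2 fold change −1.27 ± 0.14, adjusted p = 0.000518, edgeR). SLA-DRA (−0.92 ± 0.13), CD74 (−0.81 ± 0.18), SLA-DOA (−0.97 ± 0.24), SLA-DQB1 (−0.84 ± 0.22) and SLA-DMA (−0.81 ± 0.20) had adjusted p-values of 0.00167 to 0.0317 in edgeR. SLA-DRA (−0.75), SLA-DMB (−0.87), SLA-DMA (−0.75) and CD74 (−0.77) passed it in L + N, and SLA-DRA (−0.54), SLA-DMB (−0.78) and CD74 (−0.66) in H + N. The interaction of SLA-DRA was then 1.14 ± 0.17 (adjusted p = 0.012) and that of SLA-DMB 1.36 ± 0.18 (adjusted p = 0.00793, edgeR). With that library left out, 10 of 42 genes tested had an adjusted p under 0.05 in H − N against L − N, beside 13% of all genes. Without L − N replicate 2, L − N replicate 3 or H − N replicate 1 in its place, 0 of 42 had one. In those 3 fits 1%, 0.0385% and 0% of all genes did, in the same order. Leaving out L − N replicate 2 moved the values the other way, to −0.55 for SLA-DRA, −0.71 for SLA-DMB, −0.43 for CD74 and −0.27 for SLA-DMA in H − N, and to −0.32 for SLA-DMB in L + N. Of the 10 macrophage markers, 10 were, without L − N replicate 1, differentially expressed and lower in H − N, 7 in L + N and 9 in H + N. That fit called 7.19%, 5.85% and 6.09% of all genes in the same order. For the markers, no values with another library left out are given.

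The heavy chain loci of classical class I varied more between libraries than the other abundant genes of the set, of which TAP2 had the widest range (3.49-fold). SLA-1 ranged from 34.3 to 510.5 CPM (14.9-fold), SLA-2 from 51.4 to 733 CPM (14.3-fold) and SLA-3 from 75.9 to 659.6 CPM (8.69-fold). The non-classical loci SLA-6, SLA-7 and SLA-8 ranged 1.86-, 1.62- and 1.63-fold. SLA-5 was near the floor, with 2 to 26 counts per library. The values of the 3 classical loci are uncertain one by one. On chromosome 7 of Sscrofa11.1, the annotated span of SLA-1 (22824137 to 22920154) holds SLA-5 and overlaps that of SLA-2 (22916747 to 22959405), which holds SLA-3 (22938211 to 22942735), and all lie on the plus strand. Their sequences are near-identical and highly polymorphic between animals, and reads could be split among them.

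SLA-2 had 91.1, 69.0 and 78.9 CPM in L − N and 493, 625 and 431 CPM in H − N. It had 451, 51.4 and 113 CPM in L + N and 119, 351 and 733 CPM in H + N. All libraries of H − N and of H + N were above all of L − N, while L + N overlapped it. The log2 fold change was 2.70 ± 0.75 in H − N (adjusted p = 0.0615), 2.33 ± 0.74 in H + N (adjusted p = 0.0713) and 1.36 ± 0.72 in L + N (adjusted p = 0.244, edgeR). The value of L + N rested on replicate 1 and was 0.05 without it. With L + N replicate 1 out of the fit, SLA-2 was differentially expressed in H − N (2.69 ± 0.54, adjusted p = 0.0388) and in H + N (2.31 ± 0.54, adjusted p = 0.0415, edgeR), and with L + N replicate 2 out in H − N alone (adjusted p = 0.0493, edgeR). DESeq2 called SLA-2 in H − N (2.68 ± 0.78, adjusted p = 0.00884) and in H + N (2.31 ± 0.78, adjusted p = 0.0238).

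SLA-1 went the other way in some libraries with high SLA-2. It had 156, 510.5 and 319 CPM in L − N, 439.8, 199 and 259 CPM in L + N, 322, 37.9 and 39.8 CPM in H − N, and 274, 34.3 and 303 CPM in H + N. In H − N replicates 2 and 3 and H + N replicate 2, SLA-1 held 3.7%, 3.5% and 5.2% of the counts of the 3 loci, against 19.5% to 68.6% in the other 9 libraries. Its log2 fold changes against L − N were −1.30 ± 0.90 in H − N, −0.13 ± 0.88 in L + N and −0.69 ± 0.89 in H + N, with adjusted p-values of 0.4, 0.938 and 0.662 in edgeR. Single libraries moved these values widely. The H − N value ran from −3.08 (H − N replicate 1 left out) to −0.83 (L − N replicate 2 left out), the H + N value lay between −1.09 and −0.19, and the L + N value turned sign, from −0.50 without L + N replicate 1 to 0.33 without L − N replicate 2.

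SLA-3 had 75.9, 164 and 264 CPM in L − N and 269.8, 363 and 659.6 CPM in H − N, without overlap (log2 fold change 1.36 ± 0.46, adjusted p = 0.103, edgeR). In H + N it had 273, 276 and 521 CPM, also above all of L − N (1.09 ± 0.46), and in L + N 321, 203 and 201 CPM. Without the library H − N replicate 3, the log2 fold change of SLA-3 in H − N was 0.91. One sum of the 3 loci does not depend on how their counted reads were split among them. It held 323, 744 and 662 CPM in L − N and 1212, 453 and 572 CPM in L + N. In H − N it held 1085, 1026 and 1131 CPM, and in H + N 665, 662 and 1557 CPM. Reads left uncounted, or given to SLA-5 or other loci that overlap the 3, are outside the sum. The H − N libraries were above all of L − N in the sum, and H + N and L + N overlapped L − N. The ratio of the means to that of L − N was 1.88 in H − N, 1.67 in H + N and 1.29 in L + N.

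**Figure D4:**
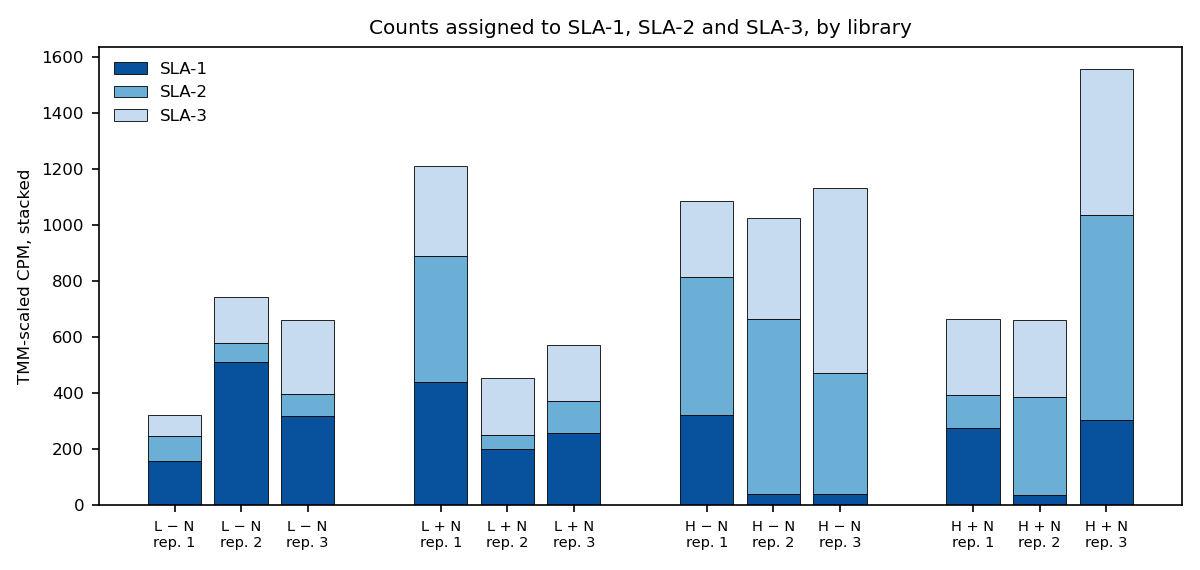
TMM-scaled CPM assigned to SLA-1, SLA-2 and SLA-3, stacked for each of the 12 libraries (vertical axis, from 0). The total runs from 323 CPM in L − N replicate 1 to 1557 CPM in H + N replicate 3, and SLA-1 is nearly missing in H − N replicates 2 and 3 and H + N replicate 2 (34.3 to 39.8 CPM).

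B2M, whose product pairs with every class I heavy chain, had 166, 535 and 430.5 CPM in L − N, 176, 286 and 337 CPM in L + N, 357, 350.4 and 471 CPM in H − N, and 358, 328 and 364 CPM in H + N. The groups overlapped, since L − N held both the lowest and the highest library, and the log2 fold change was 0.06 ± 0.35 in H − N, −0.50 ± 0.35 in L + N and −0.11 ± 0.35 in H + N. Without L − N replicate 1 the value in L + N was −0.86 ± 0.24 (adjusted p = 0.0417, edgeR) and those in H − N and H + N were −0.29 and −0.46, while without L − N replicate 2 they were −0.17, 0.40 and 0.23. These B2M values are of the member entry alone. Another entry of the same name had log2 CPM of 8.27, 9.22 and 8.82 in L − N and 8.62, 8.62 and 8.60 in L + N. How reads were divided between these entries was not tested, so the B2M values are uncertain. SLA-7 was lower with NCG in both diets without overlap. It had 26.7, 29.7 and 32.2 CPM in L − N against 25.2, 22.9 and 25.5 CPM in L + N, and 30.7, 26.3 and 36.8 CPM in H − N against 26.2, 22.8 and 26.2 CPM in H + N. Its log2 fold change for NCG was −0.29 ± 0.10 (adjusted p = 0.109, edgeR). The value of SLA-6 for NCG was −0.32 ± 0.12 (adjusted p = 0.121, edgeR), and that of SLA-8 −0.09 ± 0.11.

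The genes that supply class I with peptides had positive log2 fold changes for high fiber, and none passed the test in edgeR. They are TAP1 and TAP2, the subunits of the peptide transporter, TAPBP (tapasin), which holds empty class I at the transporter, PSME1, PSME2 and PSME3, the activators of the proteasome, and the chaperone HSPA4. All 7 were positive for fiber, with a median log2 fold change of 0.19, where 53.7% of all genes were positive. The sign turned for TAP1 (−0.06) and TAPBP (−0.02) without H − N replicate 3, and for PSME3 (−0.01) without H + N replicate 3. The H − N group was higher than L − N in 6 of 7, with a median of 0.34.

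PSME1 had 165, 142 and 137 CPM in L − N and 218, 173 and 200.2 CPM in H − N, without overlap. In L + N it had 145, 154 and 169 CPM and in H + N 180.0, 159.9 and 174 CPM. Its log2 fold change was 0.27 ± 0.08 for fiber (adjusted p = 0.127) and 0.41 ± 0.12 in H − N against L − N (adjusted p = 0.0692, edgeR). Without L − N replicate 1 the latter was 0.50 ± 0.13 (adjusted p = 0.028, edgeR), and DESeq2 gave adjusted p-values of 0.0476 for fiber and 0.02 in H − N. PSME2, the partner of PSME1 in the interferon-inducible activator, had 48.0, 64.8 and 58.9 CPM in L − N and 80.2, 71.2 and 121 CPM in H − N, also without overlap. It had 61.4, 71.9 and 72.3 CPM in L + N and 86.8, 60.6 and 96.8 CPM in H + N, and its log2 fold change for fiber was 0.46 ± 0.16 (adjusted p = 0.15, edgeR). In H − N its adjusted p was 0.0498 with DESeq2. Both lay with SLA-2, SLA-3 and LOC100523789 among the 5 of 40 genes higher without overlap in H − N, where 12.8% of all genes were. PSME3 is the activator of the nuclear proteasome and had 97.7 to 153 CPM, with a log2 fold change for fiber of 0.10 ± 0.11.

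TAP1, TAP2 and TAPBP had their highest values in single high-fiber libraries. TAP1 had 58.4, 93.1 and 87.5 CPM in L − N, 82.4, 60.3 and 89.8 CPM in L + N, 90.1, 64.1 and 149 CPM in H − N, and 72.4, 59.9 and 88.3 CPM in H + N. TAP2 had 32.0 to 71.0 CPM in L − N, 43.2 to 67.5 CPM in L + N, 57.3 to 112 CPM in H − N and 42.7 to 104 CPM in H + N. TAPBP had 136 to 195 CPM in L − N, 149 to 162 CPM in L + N, 142 to 268 CPM in H − N and 126 to 173 CPM in H + N. H − N replicate 3 was the highest library for all 3 genes, and every pair of groups overlapped. Their log2 fold changes for fiber were 0.13 ± 0.21, 0.37 ± 0.27 and 0.12 ± 0.16.

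Among the transcription factors of the MHC promoters, CREB1 was the gene that rose with NCG. The class II promoter is bound by the trimer of RFX5, RFXANK and RFXAP, by the trimer NFYA, NFYB and NFYC, and by CREB1, which is also a general factor of cyclic AMP signaling. CREB1 had 65.3, 66.4 and 61.6 CPM in L − N and 106, 105 and 95.7 CPM in L + N. It had 60.8, 82.4 and 83.2 CPM in H − N and 107, 97.2 and 87.4 CPM in H + N. All 6 libraries with NCG were above all 6 libraries without it. The log2 fold change for NCG was 0.52 ± 0.09 (adjusted p = 0.0108), with 0.67 ± 0.13 in L + N (adjusted p = 0.0139) and 0.59 ± 0.13 in H + N against L − N (adjusted p = 0.0274, edgeR). Within the high-fiber diet, H + N against H − N, it was 0.36 ± 0.13 (adjusted p = 0.497, edgeR). In L + N the adjusted p missed the threshold without L + N replicate 2 or L − N replicate 3, and in H + N without H + N replicate 1, L − N replicate 2 or L − N replicate 3, with log2 fold changes of at least 0.64 and 0.50. The gene is overlapped by LOC102167165 on the opposite strand.

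The NF-Y genes had smaller positive values with NCG that did not pass in all 12 libraries. NFYA had 65.8, 78.4 and 61.1 CPM in L − N, 90.3, 80.0 and 78.7 CPM in L + N, 61.0, 66.5 and 82.1 CPM in H − N, and 82.5, 84.3 and 87.1 CPM in H + N. With NCG it was higher without overlap within each diet, and its log2 fold change was 0.28 ± 0.09 (adjusted p = 0.103, edgeR), and 0.34 ± 0.09 without H − N replicate 3 (adjusted p = 0.0416, edgeR). NFYB had 47.8, 41.3 and 39.9 CPM in L − N against 54.4, 57.9 and 52.5 CPM in L + N, and 43.9, 59.3 and 54.1 CPM in H − N against 59.3, 51.1 and 58.4 CPM in H + N. Its log2 fold change for NCG was 0.23 ± 0.09 (adjusted p = 0.161, edgeR), and NFYC had 0.09 ± 0.08.

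The genes higher without overlap in L + N than in L − N were NFYA, CREB1 and NFYB, 3 of the 40, where 18% of all genes were. Those lower without overlap were SLA-7, TRIM52 and RFXANK, where 17.2% were. Comparing H + N with L − N, 7 genes were higher without overlap and 5 lower, beside 15.2% and 12.7% of all genes. The 7 were NFYA, NFYB, NFYC, CREB1, SLA-2, SLA-3 and LOC100523789, and the 5 were SLA-6, SLA-7, RFXANK, TRIM52 and LOC110257615. For H + N against H − N the 6 genes higher without overlap were SLA-DRA, SLA-DMB, NFYA, CREB1, CD8B and LOC110261595, where 7.82% of all genes were, and SLA-7 was lower, where 5.13% were.

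The RFX genes varied little. RFX5, the DNA-binding subunit, had 60.7 to 74.4 CPM over the 12 libraries (1.23-fold) and a log2 fold change between −0.02 and 0.03 in all 8 comparisons. RFXANK had 23.6, 25.0 and 23.0 CPM in L − N, 22.8, 19.9 and 22.1 CPM in L + N, 23.7, 21.1 and 19.5 CPM in H − N, and 15.8, 19.6 and 20.6 CPM in H + N. L − N was the highest group and H + N the lowest in the mean, with a log2 fold change of −0.35 ± 0.14 between them (adjusted p = 0.131, edgeR). RFXAP had 40.6 to 66.5 CPM, and its log2 fold changes lay between −0.20 and 0.07.

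TRIM52 fell in both groups with NCG against L − N. It belongs to the pathway by its deposited orthology term, which is that of the class I heavy chain, although it is described as a tripartite motif protein and lies on chromosome 2. It was named after its values were seen. It had 159, 201 and 230.2 CPM in L − N, 125, 132 and 124 CPM in L + N, 146, 121 and 168 CPM in H − N, and 119, 114 and 148 CPM in H + N. All L + N and H + N libraries were below all L − N libraries, while H − N overlapped L − N. The log2 fold change was −0.63 ± 0.16 in L + N (adjusted p = 0.0352) and −0.63 ± 0.16 in H + N (adjusted p = 0.0402), and for NCG over both diets −0.41 ± 0.12 (adjusted p = 0.0536, edgeR). In L + N the call was lost without any one of the L + N libraries or L − N replicate 2 or 3, and in H + N without any one of the libraries with NCG or L − N replicate 2 or 3, with log2 fold changes between −0.77 and −0.50 in both. Without L − N replicate 1 its log2 fold change was −0.57 in H − N (adjusted p = 0.0383), −0.76 in L + N (adjusted p = 0.0148) and −0.77 in H + N (adjusted p = 0.0147, edgeR).

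**Figure D5:**
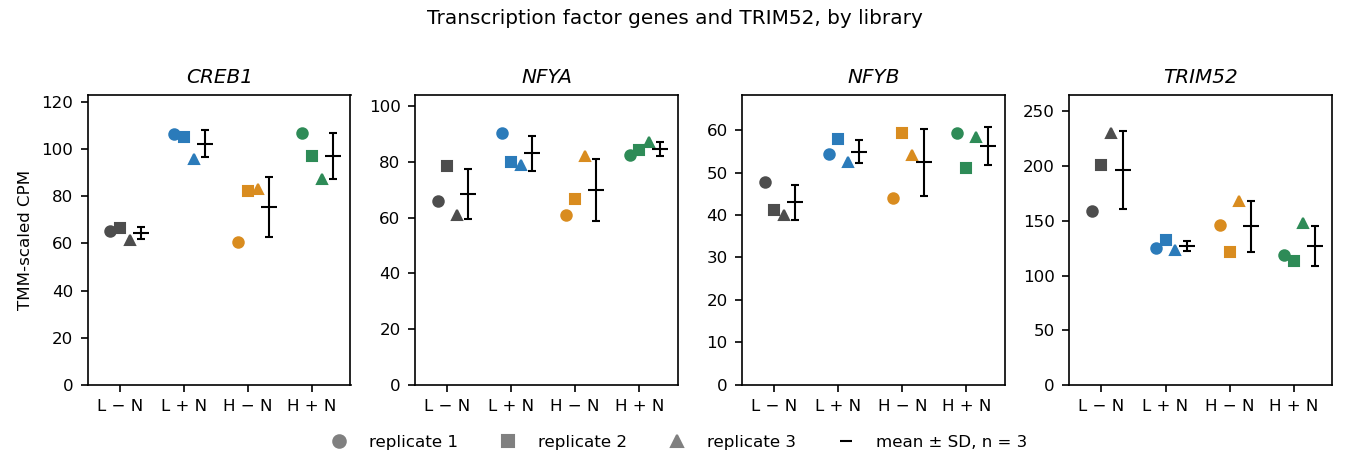
TMM-scaled CPM of CREB1, NFYA, NFYB and TRIM52 in each library (vertical axes, from 0) by group (horizontal axes), with symbols for the replicate numbers and bars for the mean ± SD of 3 libraries. CREB1 lies at 87.4 to 107 CPM in the 6 libraries with NCG and at 60.8 to 83.2 CPM in the 6 without it, and TRIM52 is highest in L − N.

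The receptors by which T and NK cells read the MHC were mostly low in counts and did not pass the test in edgeR in any comparison of all 12 libraries. CD4, the coreceptor for class II, had 11.08, 38.2 and 31.4 CPM in L − N, 20.0, 20.1 and 19.2 CPM in L + N, at most 14.4 CPM in each H − N library, and 13.2, 22.1 and 28.1 CPM in H + N. As in the class II genes, L − N replicates 2 and 3 were the highest libraries and replicate 1 was as low as H − N. Its log2 fold change in H − N was −1.05 ± 0.38 (adjusted p = 0.125, edgeR), and without L − N replicate 1 it was −1.43 ± 0.26 (adjusted p = 0.00632, edgeR). DESeq2 called CD4 in H − N (−1.07 ± 0.39, adjusted p = 0.0484). The 8 T cell markers summed to 69.6 to 174 CPM in L − N and 97.2 to 167 CPM in the other 9 libraries.

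CD8A, the coreceptor for class I, had 9.30, 32.2 and 10.7 CPM in L − N, 23.2, 17.1 and 17.3 CPM in L + N, 14.4, 15.4 and 18.6 CPM in H − N, and 17.6, 17.6 and 37.3 CPM in H + N. Single libraries were high in L − N and H + N, and the groups overlapped. CD8B had 0.891 to 7.46 CPM, with its highest value in L − N replicate 2. Their log2 fold changes in H + N against L − N were 0.47 ± 0.44 and −0.81 ± 0.71.

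LOC100523789, described as an NKG2-A/NKG2-B protein and thus an inhibitory receptor of NK cells for class I, had the second largest positive fold change of the set in H + N. It had 1.66, 2.45 and 2.42 CPM in L − N, 5.53, 1.75 and 10.9 CPM in L + N, 2.59, 11.7 and 4.90 CPM in H − N, and 4.81, 10.6 and 14.5 CPM in H + N. All H − N and all H + N libraries were above all L − N libraries. The log2 fold change was 2.19 ± 0.69 in H + N (adjusted p = 0.0705), 1.55 ± 0.69 in H − N (adjusted p = 0.194) and 1.47 ± 0.69 in L + N (adjusted p = 0.187, edgeR). DESeq2 called LOC100523789 in H + N (2.18 ± 0.66, adjusted p = 0.0108). KLRD1 (CD94), which pairs with NKG2-A, had 1.66 to 4.77 CPM in L − N, 2.68 to 8.93 CPM in L + N, 1.66 to 4.07 CPM in H − N and 3.20 to 5.21 CPM in H + N, with log2 fold changes against L − N of −0.02 to 0.89. The 8 markers of NK and cytotoxic cells summed to 26.6 to 115 CPM in L − N and 29.98 to 80.4 CPM in the other 9 libraries.

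The T cell receptor loci were near the floor. LOC110261595, an alpha chain locus on chromosome 7, had 0.0637, 2.82 and 1.34 CPM in L − N, 0.679, 0.233 and 0.850 CPM in L + N, 0.570, 0.485 and 0.552 CPM in H − N, and 1.12, 1.96 and 1.23 CPM in H + N. H + N was above H − N and above L + N without overlap. The beta chain locus LOC110257615 on chromosome 18 had 0.0637, 2.13 and 0.470 CPM in L − N and 1.02, 1.75 and 0.327 CPM in L + N. It was at 0 in H − N replicate 2 and in H + N replicates 1 and 3, and at 0.0543 CPM in H + N replicate 2, so no fold is given. Its highest values were in single libraries of the low-fiber diet, and DESeq2 called it for fiber (adjusted p = 0.0161) and edgeR did not (adjusted p = 0.103). For H + N against L + N, LOC110261595 and LOC106504372 were the genes higher without overlap, where 5.86% of all genes were, and LOC110257615 was lower, where 5.09% were.

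The cytokine genes of the pathway had low counts. IFNG, the interferon that induces MHC genes, had 2 to 18 counts per library and TNF had 10 to 45. IFNG had 0.127, 0.690 and 0.403 CPM in L − N and 0.725, 0.598 and 1.04 CPM in H + N, with a log2 fold change of 0.94 ± 0.61 (adjusted p = 0.346, edgeR). Neither gene passed the test in any comparison.

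Among the pathway genes that the rule left out, some proteases of the endosome and lysosome passed the test. Of the 15, 2 were differentially expressed and lower in H − N than in L − N, 1 in L + N and 2 in H + N. The shares of all genes called there were 2.91%, 3.99% and 3.58%. CTSB, the lysosomal protease cathepsin B, had 1239.7, 4031 and 4071 CPM in L − N, 1231, 1059.8 and 1140.0 CPM in L + N, 1014, 1066 and 758 CPM in H − N, and 1199, 1331 and 1149.8 CPM in H + N. The high libraries were again L − N replicates 2 and 3. Its log2 fold change was −1.72 ± 0.35 in H − N (adjusted p = 0.0279), −1.45 ± 0.35 in L + N (adjusted p = 0.028) and −1.34 ± 0.35 in H + N (adjusted p = 0.0412, edgeR). LGMN, the asparaginyl endopeptidase that starts the cleavage of the invariant chain, fell by 1.65 ± 0.33 on the log2 scale in H − N (adjusted p = 0.0258) and by 1.41 ± 0.33 in H + N (adjusted p = 0.0297, edgeR). It had 365, 1055 and 1111 CPM in L − N, 373 to 497 CPM in L + N, 243 to 306 CPM in H − N and 287 to 332 CPM in H + N. Here too L − N replicates 2 and 3 were the high libraries, and replicate 1 was below every L + N library. CTSS, cathepsin S, which finishes that cleavage, had 322, 1253 and 977 CPM in L − N and 309, 366 and 297 CPM in H − N (−1.39 ± 0.37, adjusted p = 0.0514, edgeR). CTSV fell with NCG by 0.67 ± 0.13 on the log2 scale (adjusted p = 0.0121, edgeR). Without L − N replicate 1, the log2 fold changes in H − N were −2.10 for CTSB, −2.01 for LGMN and −1.78 for CTSS, all differentially expressed, and 4 of the 15 were lower and differentially expressed in H − N, 3 in L + N and 4 in H + N, where HSPA2 was also differentially expressed and higher (1.05). Of all genes, 7.19%, 5.85% and 6.09% were called in that fit.

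Some MHC genes carry no label of this pathway in the deposited annotation, among them SLA-DQA1, SLA-DRB1, SLA-DOB, CIITA, the master coactivator of class II, and IFI30, the thiol reductase of antigen-presenting cells. All 5 were tested and all 5 had negative log2 fold changes in H − N against L − N. Those of SLA-DOB were positive in L + N (0.40 ± 0.36) and H + N (0.20 ± 0.36), and the other 4 genes were negative there too. SLA-DQA1 had 305, 643 and 807 CPM in L − N, 239.6, 247 and 314 CPM in L + N, 258, 274 and 448 CPM in H − N, and 323, 319 and 244 CPM in H + N. It was differentially expressed in L + N (log2 fold change −1.13 ± 0.32, adjusted p = 0.0485, edgeR), although L + N replicate 3 was above L − N replicate 1. SLA-DRB1 had 60.0, 214 and 104 CPM in L − N and 19.4, 49.3 and 55.5 CPM in H − N (−1.61 ± 0.62, adjusted p = 0.141, edgeR). Without L − N replicate 1, SLA-DQA1 was differentially expressed in H − N (−1.15), L + N (−1.44) and H + N (−1.29), and so was IFI30 (−1.51, −1.14 and −1.26 in the same order). SLA-DRB1 then had −1.94 in H − N (adjusted p = 0.0673, edgeR). CIITA had 27.6, 48.4 and 42.8 CPM in L − N and 26.8 to 39.2 CPM in the other 9 libraries, with log2 fold changes of −0.41 ± 0.20 in H − N, −0.30 ± 0.20 in L + N and −0.35 ± 0.20 in H + N. Without L − N replicate 1 its value in H − N was −0.62 ± 0.16 (adjusted p = 0.0312, edgeR). For these 5 genes too, no values with another library left out are given.

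A list of 20 genes that control or serve MHC presentation from outside the pathway, 18 of them tested, had 2 genes lower and 0 higher at an adjusted p under 0.05 in each of the other 3 groups against L − N. Of all genes, 5.27% reached that threshold in H − N, 9.6% in L + N and 7.97% in H + N. IFNGR1, the ligand-binding chain of the interferon gamma receptor, was among the lower genes of the list in all 3 groups. It had 91.7, 137 and 127 CPM in L − N, 79.8, 76.4 and 66.1 CPM in L + N, 61.6, 77.3 and 73.7 CPM in H − N, and 66.9, 74.3 and 54.0 CPM in H + N. Every L − N library was above every other library. The log2 fold change was −0.74 ± 0.17 in H − N (adjusted p = 0.0354), −0.68 ± 0.17 in L + N (adjusted p = 0.0323) and −0.86 ± 0.17 in H + N (adjusted p = 0.0218, edgeR). The others were FCGRT, the neonatal Fc receptor, in H − N (−0.49 ± 0.13, adjusted p = 0.0491), the kinase JAK1 in L + N (−0.49 ± 0.12, adjusted p = 0.0269) and CD1D, which presents lipids, in H + N (−1.59 ± 0.33, adjusted p = 0.023, edgeR). With L − N replicate 1 left out, the list had 4 genes lower at an adjusted p under 0.05 in H − N, 5 in L + N and 4 in H + N. Of all genes, 13%, 12.6% and 11.7% reached it in that fit, in the same order. Counts of this list with another library left out are not given. The class I coactivator NLRC5 had log2 fold changes of 0.16 ± 0.30, 0.40 ± 0.30 and 0.10 ± 0.30.

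Relations between single genes over the 12 libraries were computed on log2 CPM for 6 pairs and tested by permutation with 100000 resamples and adjustment over the 6, and 5 pairs are given here. Of these 5, 2 passed. CIITA and CD74 had r = 0.94 (permutation p = 6e-05, adjusted 0.00036) and rho = 0.85 (permutation p = 0.001), and r = 0.79 without the 2 libraries farthest from the median of CIITA, which were L − N replicates 2 and 3. CD3E of the T cell receptor complex and CD8A had r = 0.86 (permutation p = 0.00062, adjusted 0.00186) and rho = 0.79 (permutation p = 0.00334), and r = 0.74 without 2 libraries. The other 3 did not pass: NLRC5 with B2M (r = 0.54, permutation p = 0.0669, rho = 0.33, permutation p = 0.299), the leukocyte gene PTPRC with CD74 (r = 0.52, permutation p = 0.0715, rho = 0.46, permutation p = 0.132) and CD3E with CD4 (r = 0.54, permutation p = 0.0665, rho = 0.46, permutation p = 0.134). In the pair with NLRC5, B2M had a log2 CPM of 8.27 in L − N replicate 1, more than the 166 CPM of the member gene. Those values are of another entry named B2M, so that pair does not describe the member. On deviations from the group means, the 5 values of r were 0.95, 0.91, 0.78, 0.69 and 0.81 in the order named. On log2 CPM, the 3 pairs that did not pass had r of 0.21, 0.34 and 0.13 without 2 libraries. Those were the farthest from the median of the first gene, with L − N replicate 1 among them in each pair. The r of deviations was not recomputed without them. The labels name no batch, so no relation could be recomputed within one.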

How the data were processed

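The authors deposited read counts per gene, without normalization, and FPKM values made from those counts and the gene length; the recomputed FPKM differed by at most 1.91e-05 percent. Per the submitters' processing notes, fastp 0.22.0, HISAT2 2.1.0, HTSeq 0.9.1 and the build Sscrofa11.1 were used. The paper describes strand-specific poly(A) libraries, and the strand setting of the counting is not given in the sources used here. Groups were read from the sample titles.

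Here, counts were filtered with filterByExpr, scaled by TMM and tested with edgeR 4.0.16 (limma 3.58.1, R 4.3.3), with one mean per group and 8 residual degrees of freedom. Contrasts for fiber and NCG average over the other factor. P-values were adjusted by Benjamini-Hochberg over 15351 genes. DESeq2 1.42.0, another scaling (RLE), no filter on low counts, the adjusted p alone, a replicate block, only the 6 libraries of the groups compared and each library left out were alternatives, and the sum of SLA-1, SLA-2 and SLA-3 was added after seeing the data. The test was tried on simulated counts. Log2 CPM used a prior count of 2. Gene sets, roles and marker lists were chosen with earlier results of these data known. Values by library or as a range are given for most SLA loci, peptide suppliers, factors and coreceptors, and for some genes that passed a test. Others, such as NFYC, CTSV and JAK1, have no values by library here. TRIM52 was added after its values were seen. Sequences were not used here. One of 6 gene pairs tested for correlation is not reported here.

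The biological coefficient of variation was 0.269, and the chi-square per gene between replicates was 23.3 to 99.8 (1 where only counting error acts), and for abundant genes the spread of the libraries rather than the depth limits the precision. Pairs with L − N replicate 1 had 99.8 and 75.0, and pairs with H − N replicate 3 had 80.9 and 68.3. Between H + N replicates 2 and 3 it was 81.9. Same-numbered libraries of different groups had correlations of −0.32 to 0.28 in their deviations from the group means (median −0.04, 18 pairs, 3 over 0.1). Pairs of different numbers had −0.32 to 0.28 as well (median 0.03, 36 pairs, 8 over 0.1). No pairing by number was seen, and with 3 libraries per group a weak one could be missed.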

Additional observations from a re-analysis of the deposited data

How the results depend on the processing

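The count of differentially expressed genes of the set was 0 in all 8 comparisons with edgeR, and under the replicate block, with RLE scaling and without the filter on low counts it was 0 in all 8 as well. With DESeq2 it was 2 for fiber, 3 in H − N and 3 in H + N, both compared with L − N (SLA-2, SLA-3 and CD4 in H − N, SLA-2, LOC110257615 and LOC100523789 in H + N), where DESeq2 called 1.89%, 5.95% and 6.44% of all genes. With the adjusted p alone it was 1 for NCG, 2 in L + N and 2 in H + N. With only the 6 libraries of the groups compared it was 1 in H − N (SLA-2). Leaving out each of the 12 libraries in turn gave 0 to 1 for fiber, 0 to 4 for the interaction, 0 to 3 in H − N, 0 to 1 in H + N and 0 in the other 4 comparisons. The highest values came without L − N replicate 1, with LOC110257615 called for fiber and in H + N, SLA-DMB, CD4 and LOC110261595 in H − N, and these 3 and SLA-DRA for the interaction. SLA-2 was called in H − N without L + N replicate 1 or 2, and in H + N without L + N replicate 1. Without L − N replicate 1 an adjusted p under 0.05 alone was reached by 4, 4, 10, 7 and 6 genes for fiber, the interaction, H − N, L + N and H + N, of 42 tested, where 6.99%, 2.81%, 13%, 12.6% and 11.7% of all genes reached it.

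CREB1 for NCG kept its adjusted p under 0.05 in 16 of 16 alternatives (log2 fold change 0.45 to 0.55), in L + N in 15 of 17 and in H + N in 13 of 17. TRIM52 kept it in 12 of 17 in L + N and 8 of 17 in H + N, and no alternative reversed either gene. The replicate block gave CREB1 0.52 for NCG, 0.67 in L + N and 0.59 in H + N, and kept its 3 calls and those of TRIM52 in L + N and H + N, while TRIM52 for NCG passed with it (adjusted p = 0.0497 against 0.0536, edgeR), as it did with DESeq2 and without H + N replicate 3, H − N replicate 2 or L − N replicate 1. Against L − N the number of all genes called in H − N was 446 in the fit used here and 254 with the block. Depth limits most the receptor and cytokine genes, such as IFNG with 2 to 18 counts per library.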
